A study of Homo sapiens with 22 samples.

Results

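The regions described here are 284 binding sites of HOXD13 in A673 cells that lie inside A673 H3K27me3 domains, away from protein-coding gene boundaries and without a HOXD13 peak in CHLA10 cells. They were chosen from the deposited peak lists as peaks of the A673 HOXD13 list on chromosomes 1 to 22 with 4 properties. They share no base with a CHLA10 HOXD13 peak, lie over 1 kb from every protein-coding gene boundary, and overlap an H3K27me3 peak of at least 1 of the 2 A673 libraries. They do not overlap H3K27ac in both A673 libraries, although a peak in 1 of these libraries was allowed. The whole A673 HOXD13 list holds 7162 peaks, of which 7047 lie on chromosomes 1 to 22, 6534 of these have no CHLA10 counterpart, and 6148 of these are also distal to coding genes. The 284 sites make up 4.62% of the 6148 (exact Clopper-Pearson 95% interval 4.11 to 5.17), and the other 5864 serve as the comparison set throughout. H3K27me3 and H3K27ac of A673 and the absence of a CHLA10 HOXD13 peak chose the sites, so those values are given as a description and were not tested.

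A673 and CHLA10 are established Ewing sarcoma cell lines, profiled by automated CUT&RUN, in which an antibody directs micrococcal nuclease to chromatin and the released fragments are sequenced. HOXD13 was profiled in 1 library per line (antibody 1:20), and H3K27me3 (1:100), H3K27ac (1:50), H3K4me1 (1:100) and H3K4me3 (1:100) in 2 libraries per line. The mark libraries carry the label shNS and the HOXD13 libraries do not. No treatment is recorded, the lines were grown in different media (an RPMI medium for A673 and IMDM with insulin, transferrin and selenium for CHLA10), and line and medium cannot be told apart. The labels do not say whether replicates are separate cultures, so the spread between them may be technical. Without read counts in the peak lists the depth at each site is unknown, and every share is of called peaks. The A673 HOXD13 list holds 7047 peaks on chromosomes 1 to 22 and the CHLA10 list 2060. Peak numbers in both have gaps, with 9.94% of the highest number deposited for A673 and 1.003% for CHLA10. Whether a site without a deposited CHLA10 peak lacks HOXD13 there was not tested. All 10 Ewing sarcoma marker genes measured carried H3K4me3 at a gene end (within 1 kb of a boundary) in all 4 libraries, and of 14 blood and epithelial markers 1 did so in both A673 libraries and 4 in both CHLA10 libraries.

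HOXD13 is a homeodomain transcription factor of the posterior HOX group, which patterns limbs and the urogenital tract, and in Ewing sarcoma it is expressed together with the EWS-FLI1 fusion. H3K27me3 is written by Polycomb repressive complex 2, often over developmental genes that a cell does not use, and it can spread over long domains. H3K4me1 lies at enhancers, H3K27ac at active enhancers and promoters, and H3K4me3 at promoters, and enhancers that carry H3K4me1 together with H3K27me3 are called poised.

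Windows of 300 bases around annotated gene starts, from RefSeq on GRCh38.p14, were available and overlapped 3 of the 284 sites (1.06%). These are shown because they are the places where the sequence under a site could be read, with the bases inside the HOXD13 peak in capitals and each window read 5′ to 3′ on the strand of its gene. The windows lie at chr14:76375887-76376186 (plus strand, an internal start of ESRRB), chr5:77957997-77958296 (plus strand, LOC101929154) and chr10:6410381-6410680 (minus strand, LOC124902370). All 3 windows that overlap a site are shown. Both LOC genes lie outside the rules for named sites and were named after the values were seen.
ESRRB: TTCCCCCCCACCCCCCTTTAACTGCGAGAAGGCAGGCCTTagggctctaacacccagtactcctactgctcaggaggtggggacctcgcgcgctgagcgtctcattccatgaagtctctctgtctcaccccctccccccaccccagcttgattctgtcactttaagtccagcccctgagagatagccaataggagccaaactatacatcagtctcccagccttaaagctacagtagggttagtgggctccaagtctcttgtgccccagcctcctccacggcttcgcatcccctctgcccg
LOC101929154: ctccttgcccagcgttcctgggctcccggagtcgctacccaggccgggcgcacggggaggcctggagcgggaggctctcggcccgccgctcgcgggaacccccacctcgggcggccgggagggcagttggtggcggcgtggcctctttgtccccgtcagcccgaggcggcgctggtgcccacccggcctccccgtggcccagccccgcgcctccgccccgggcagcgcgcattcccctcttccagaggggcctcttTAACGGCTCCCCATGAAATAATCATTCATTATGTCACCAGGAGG
LOC124902370: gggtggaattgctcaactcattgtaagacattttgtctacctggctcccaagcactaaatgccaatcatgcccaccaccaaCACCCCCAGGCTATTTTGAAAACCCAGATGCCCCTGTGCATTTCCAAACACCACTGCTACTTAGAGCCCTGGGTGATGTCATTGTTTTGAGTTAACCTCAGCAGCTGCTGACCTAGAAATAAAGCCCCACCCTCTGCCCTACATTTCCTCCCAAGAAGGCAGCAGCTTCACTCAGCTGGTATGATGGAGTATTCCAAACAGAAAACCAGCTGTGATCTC
The HOX-type letters TTTATNG and, as a variant for posterior HOX factors, TTTACGA were searched on both strands. So were 2 units of GGAA joined without a gap, the repeat unit that EWS-FLI1 binds, and none of the 3 patterns occurred in any of the 3 windows. Among 34943 distinct promoter windows, 9.75% held TTTATNG, 0.535% held TTTACGA and 3.68% held the GGAA pair. The ESRRB peak covered 40 bases of its window, all of them upstream of the start, and ESRRB encodes an orphan nuclear receptor. The ESRRB site had a HOXD13 −log10 q of 12.7 and lay under A673 H3K4me3 peaks with fold enrichments of 57.5 and 68.5, while no CHLA10 library of any mark had a peak there. Its H3K27me3 folds in A673 were 4.68 and 4.67. A673 replicate 2 alone also had H3K27ac (fold 6.47) and H3K4me1 (fold 7.60) there. The LOC101929154 peak covered 44 bases just after the start and was stronger (−log10 q 35.1), in a domain with H3K27me3 folds of 7.60 and 7.82 in A673 and no mark in CHLA10. The LOC124902370 peak covered 219 bases, lies inside the kinase gene PRKCQ, and was weak (−log10 q 8.28), with H3K27me3 in A673 replicate 1 (fold 3.81) but not replicate 2.

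The sites varied widely in HOXD13 enrichment. The authors' −log10 q per peak had a median of 16.4 over the 284 sites (95% interval of the median 14.5 to 18.3, quartiles 10.2 and 26.0, range 2.47 to 136) and of 14.2 over the 5864 others (13.9 to 14.5). Median fold enrichment was 10.1 (9.62 to 10.8) at the sites and 9.18 (9.01 to 9.25) at the others, and median peak length was 208 bp (196 to 219) against 191 bp (188 to 193). The intervals of fold and length did not overlap and those of −log10 q met at 14.5, and all cover counting of sites only, since 1 HOXD13 library gives no replicate. The values were not particular to the 284 sites, since the 1685 A673-only distal sites with H3K4me1 alone had overlapping intervals for −log10 q (median 15.1, 14.5 to 15.7), fold (9.82, 9.59 to 9.91) and length (195 bp, 192 to 199). The −log10 q values are partly tied, with 196 distinct values and 12 sites at 12.7. By the same rule applied to CHLA10, 8 of 1522 CHLA10-only distal HOXD13 sites lay in CHLA10 H3K27me3 (0.526%, interval 0.227 to 1.03). The HOXD13 lists keep unlike parts of their numbered peaks (9.94% in A673, 1.003% in CHLA10), so this share and that of A673 are not like for like.

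H3K27me3 over the sites was repeated in part between the A673 libraries. Replicate 1 covered 192 of the 284 sites (67.6%, interval 61.8 to 73.0) and replicate 2 covered 254 (89.4%, 85.3 to 92.8). Both libraries covered 162 sites (57.0%, where 2.67% of all 6148 A673-only distal sites were covered in both, a contrast the choice of sites fixes), 30 sites were covered by replicate 1 alone and 92 by replicate 2 alone. Most peaks over the sites were modest, with median folds of 4.60 and 4.12 in replicates 1 and 2, against 3.95 and 3.65 over all H3K27me3 peaks of those libraries. The H3K27me3 peaks over the sites were long, with medians of 9.09 and 9.95 kb against 3.68 and 4.34 kb for all peaks. A longer peak has more room to hold a site, and 50% of all H3K27me3 bases lay in peaks of at least 5.78 and 7.35 kb in the 2 libraries.

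In CHLA10 most of these places had no H3K27me3 peak. Each CHLA10 library covered 50 of the 284 sites (17.6% ± 0, SD, n = 2 libraries, exact interval of each 13.4 to 22.5), against 1.92% ± 0.301 (n = 2) of the 5864 others. Both CHLA10 libraries covered 36 sites (12.7%, against 1.64% of all 6148), 28 were covered in 1 library and 220 in neither. H3K27me3 was called in both A673 and neither CHLA10 library at 112 sites (39.4%, against 1.85% of all 6148), and the opposite pattern was at 0 sites (1.06% of all 6148); the choice of sites fixes both contrasts in part. Of the 162 sites with H3K27me3 in both A673 libraries, 24.7% had it in each CHLA10 library, and of the 122 sites with it in 1 A673 library, 8.20% did. The same A673 domains as a whole were marked in CHLA10 more often than the sites in them. Of the site summits, 16.9% lay in H3K27me3 of each CHLA10 library. Of 211524 positions spaced 1 kb apart in the A673 domains, all over 1 kb from coding gene boundaries, 33.8% and 34.7% lay in H3K27me3 of CHLA10 replicates 1 and 2. This contrast is a description and was not tested. The A673 H3K27me3 lists cover 139.7 and 190.0 Mb and those of CHLA10 181.4 and 190.7 Mb.

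**Figure D1:**
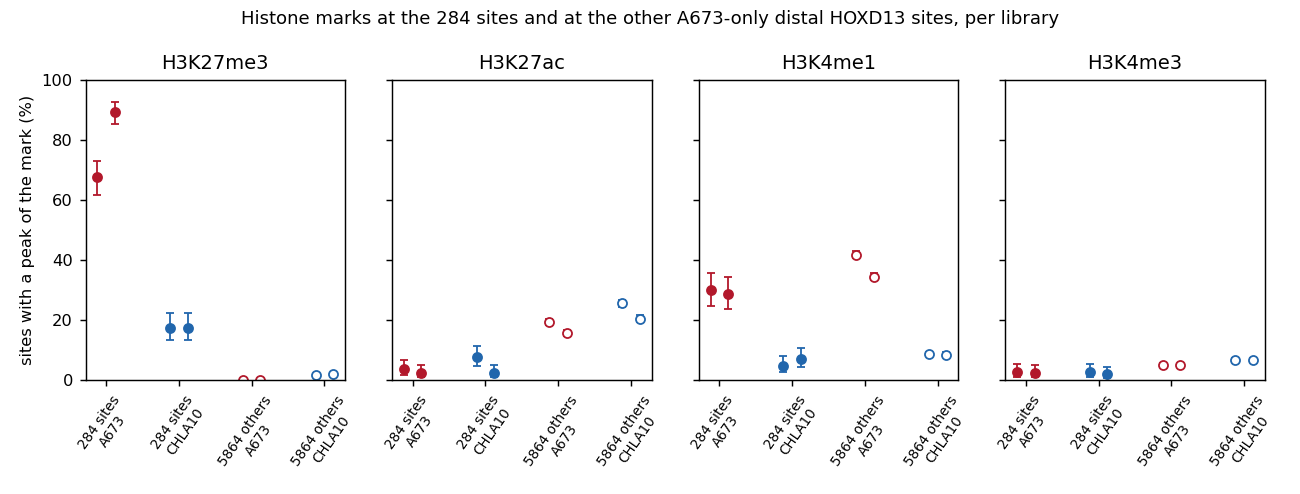
Share of sites with a peak of each mark (vertical axis, percent), for the 284 sites (filled) and the 5864 other A673-only distal HOXD13 sites (open), in A673 (red) and CHLA10 (blue). Each point is 1 library and bars are exact 95% intervals; the A673 H3K27me3 and H3K27ac values were fixed by the choice of sites, while H3K4me1 lies at 29.9% and 28.9% of the 284 sites in A673 against 4.93% and 7.04% in CHLA10.

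H3K4me1, the enhancer-linked methylation whose peaks were not used in choosing the sites, was present at a substantial minority of them in A673. The 2 A673 libraries had H3K4me1 peaks at 85 and 82 of the 284 sites, and the 2 CHLA10 libraries at 14 and 20. This came to 29.4% ± 0.747 of sites in A673, against 5.99% ± 1.49 in CHLA10 (SD, n = 2 libraries each), a difference of 23.4 percentage points, larger than either SD. Both A673 libraries lay above both CHLA10 libraries, but an exact two-sided permutation test over 2 against 2 libraries gave p = 0.333, the smallest that this design allows. The 5864 other sites had H3K4me1 at 38.2% ± 5.16 in A673 and 8.69% ± 0.181 in CHLA10 (n = 2 each). The line difference at the sites therefore had a parallel at the others, a ratio of 4.91 against 4.40. Both sets were chosen for a HOXD13 peak in A673 and none in CHLA10. The part of that choice in the line difference was not tested. The A673 H3K4me1 lists cover 73.3 and 51.0 Mb and those of CHLA10 9.42 and 11.0 Mb, and the part of this gap in the result was not tested. In bulk libraries, marks on the same chromatin and marks in different cells cannot be told apart.

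Site by site, 57 of the 284 had H3K4me1 in both A673 libraries (20.1%, against 26.4% of all 6148), 53 in 1 library and 174 in neither. Of these, 47 had it in both A673 and neither CHLA10 library (16.5%, against 20.4% of all 6148), and 0 had the opposite pattern (0.846% of all 6148). H3K4me1 was in both CHLA10 libraries at 5 sites (1.76%, against 2.78% of all 6148). H3K4me1 in both A673 libraries was about as frequent among the 162 sites with H3K27me3 in both libraries (20.4%) as among the 122 with it in 1 (19.7%). HOXD13 −log10 q had a median of 18.7 (quartiles 10.1 and 31.6) at the 57 sites, 18.4 (10.9 and 26.9) at the 53 and 15.5 (10.03 and 22.8) at the 174, and these quartile ranges overlap. H3K4me1 was narrow where H3K27me3 was wide. Called peak lengths enter this contrast, with A673 medians of 401 and 781 bp for H3K4me1 against 3.68 and 4.34 kb for H3K27me3. At the summit 23.6% of sites lay in H3K4me1 in each A673 library, and 5 kb to the lower-coordinate side 3.17% and 1.41% did. H3K27me3 at that distance still covered 53.2% and 60.9% of sites. A673 H3K4me1 fell likewise at the 5864 others, from 35.5% and 30.1% at the summit to 7.01% and 5.10% at that distance. Within the A673 domains as a whole, 1.43% and 0.698% of the 1-kb positions lay in A673 H3K4me1.

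**Figure D2:**
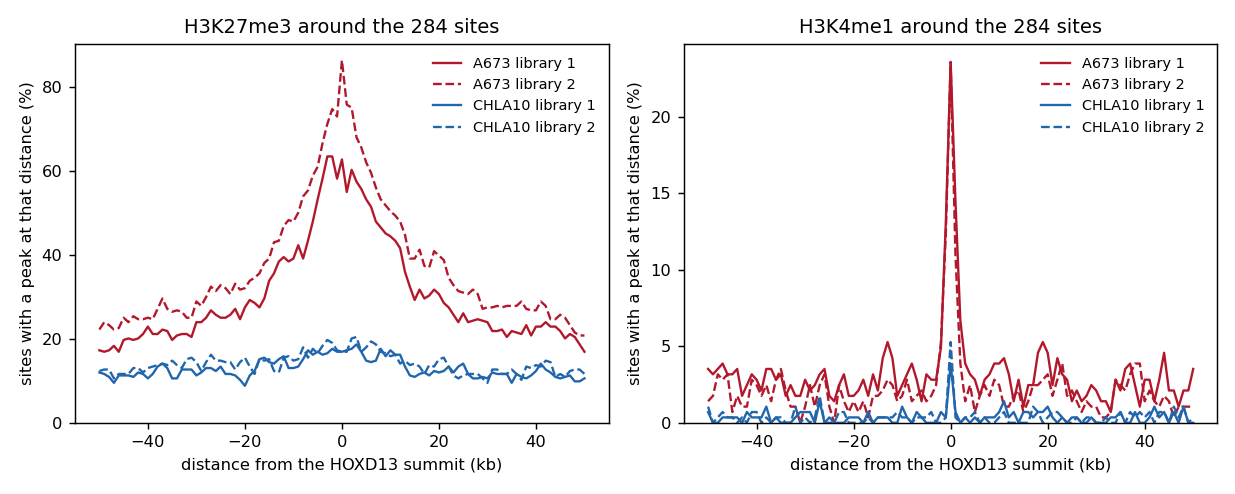
Share of the 284 sites (vertical axis, percent) with an H3K27me3 peak (left) or an H3K4me1 peak (right) at each distance from the HOXD13 summit (horizontal axis, kb, 1-kb steps), for A673 (red) and CHLA10 (blue), replicate 1 solid and replicate 2 dashed. A673 H3K27me3 falls off gradually, to 17.3% and 22.2% at 50 kb on the lower-coordinate side, CHLA10 H3K27me3 runs from 16.9% in both libraries at the summit to 10.6% and 11.6% at 50 kb on the higher-coordinate side, and H3K4me1 forms a narrow peak at the summit.

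The remaining marks were rare at the sites. A673 H3K27ac, limited by the choice of sites, was found at 11 sites in replicate 1 and 7 in replicate 2, so 266 sites had none and 0 had it in both (9.71% of all 6148, fixed by the choice). CHLA10 H3K27ac, which the choice did not use directly, was found at 22 and 7 sites (5.11% ± 3.73, n = 2 libraries), against 23.1% ± 3.63 (n = 2) of the others. The others include the 597 sites with H3K27ac in both A673 libraries, where the CHLA10 share was 51.3% ± 6.28, so the choice enters this contrast in part. The share was 14.3% ± 2.25 at the 2518 others without any A673 mark and 21.3% ± 4.36 at the 1685 with H3K4me1 alone (n = 2 each). Shares over all 6148 sites include the 597 too. With the upper 50% of each mark list the share at the sites was 2.33%. The CHLA10 H3K27ac lists also differ in length, with 38605 and 23617 peaks. H3K27ac in both CHLA10 libraries was seen at 6 sites (2.11%, against 16.0% of all 6148), and 5 of these had it in neither A673 library (1.76%, against 8.56%). They lie near CD8B2, LOC124906892, BTRC, AHR, CDC42BPA and PPP1R17 (inside PDE1C), named because they are few, after their values were seen. AHR encodes the aryl hydrocarbon receptor, BTRC a substrate receptor of a ubiquitin ligase, CDC42BPA a kinase of the cytoskeleton and PDE1C a cyclic nucleotide phosphodiesterase. H3K4me3 was found at 8 and 7 sites in A673 and at 8 and 6 in CHLA10. Its share averaged 2.64% ± 0.249 in A673, against 2.46% ± 0.498 in CHLA10 (n = 2 each), a difference of 0.176 percentage points that was smaller than the SDs (exact two-sided permutation p = 1, smallest possible 0.333). H3K4me3 was found in both A673 libraries at 6 sites (2.11%, against 3.69% of all 6148) and in both CHLA10 libraries at 5 (1.76%, against 5.06%). It was in both A673 and neither CHLA10 library at 3 sites (1.06%, against 1.04% of all 6148) and in both CHLA10 and neither A673 library at 2 (0.704%, against 2.13%). In A673 the strongest were the ESRRB site and a site inside MECOM, a zinc finger transcription factor gene of blood stem cells, with H3K4me3 folds of 72.4 and 28.7. The PRTG site, in a neural immunoglobulin superfamily gene, had H3K4me3 folds of 27.2 and 22.3 in A673 and of 15.5 and 15.7 in CHLA10. No H3K27ac, H3K4me1 or H3K4me3 peak of any A673 library was found at 166 sites (58.5%, against 43.7% of all 6148), and no mark of any kind in CHLA10 at 177 (62.3%, against 60.0%). The choice of sites, which bars H3K27ac in both A673 libraries, fixes the A673 contrast in part.

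Within the domains, the sites lay both near the edge and deep inside. The median distance from the HOXD13 summit to the nearest edge was 1.05 kb in replicate 1 (quartiles 0.255 and 4.43, maximum 35.8) and 1.76 kb in replicate 2 (quartiles 0.532 and 5.18, maximum 39.1). In replicate 1, 94 of 192 sites (49.0%) lay within 1 kb of an edge, and in replicate 2, 102 of 254 (40.2%). The outer 1 kb on each side made up on average 30.5% and 27.1% of the length of the same peaks. The summit itself lay just outside the peak, with only a flank inside, at 14 and 9 sites. Their distances were taken as negative, so the counts within 1 kb of an edge include them. The outer 1 kb lies inside the peak, so its share is not like for like with those counts. Merging the peaks of both A673 libraries gave 35183 domains over 217.9 Mb, of which 263 (0.748%) held a site, 243 of them 1 site, 19 of them 2 and 1 of them 3. The 3 sites in 1 domain lie inside SYBU, a gene for a linker of cargo to kinesin in axons (−log10 q 19.0, 18.3 and 5.24), where A673 replicate 2 alone had H3K27me3 (fold 3.61). The next domains by the strength of their sites hold 2 each. The nearest genes are EFNA5, an ephrin ligand gene (336 kb from the stronger site), and OGFRL1 (165 kb). The other domains lie inside TTC23L and CRACR2A, a regulator of calcium entry. The domain in CRACR2A is 65.2 kb long, and both of its sites (−log10 q 40.7 and 27.3) had H3K4me1 in both A673 libraries. The domain in TTC23L is 56.3 kb long, with sites of −log10 q 42.6 and 26.4. Of the 263 domains, 4 also held a CHLA10 HOXD13 peak at another place. The nearest CHLA10 HOXD13 peak was a median of 495 kb from the sites, against 402 kb for the others, and it lay within 10 kb of 6 sites (2.11%) and of 253 others (4.31%). The nearest A673 H3K27ac peak was a median of 37.6 kb (replicate 1) and 25.2 kb (replicate 2) away, against 9.97 and 10.2 kb for the others that did not have H3K27ac in both libraries.

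**Figure D3:**
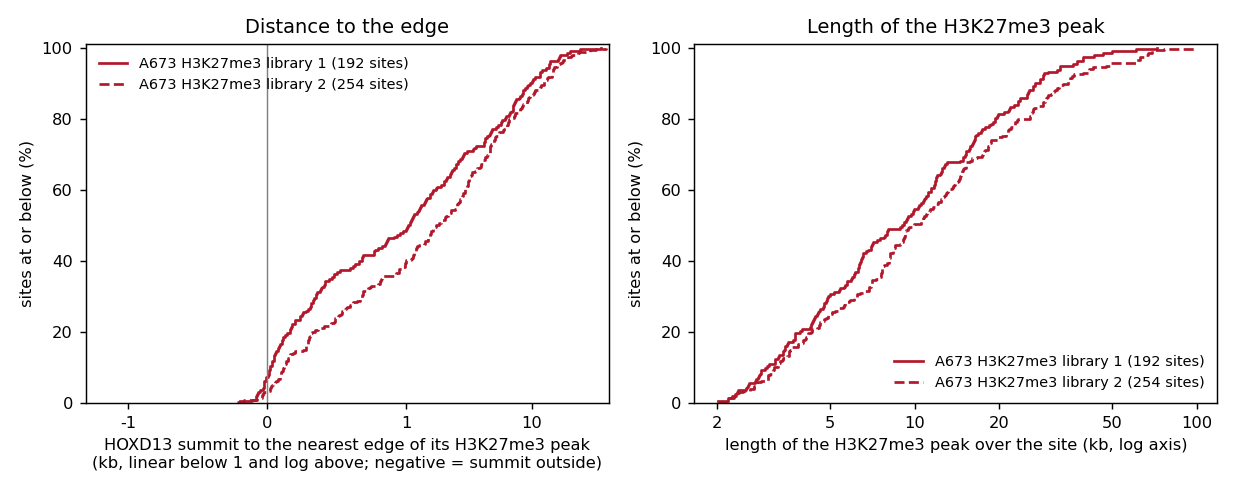
Cumulative share of sites (vertical axis, percent) by the distance of the HOXD13 summit to the nearest edge of the A673 H3K27me3 peak over it (left, kb, linear below 1 kb and logarithmic above) and by the length of that peak (right, kb, log axis), for replicate 1 (solid, 192 sites) and replicate 2 (dashed, 254 sites). The curves cross 50% at 1.05 and 1.76 kb from the edge and at lengths of 9.09 and 9.95 kb.

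The 15 sites with the highest −log10 q mostly had H3K27me3 and no other A673 mark. In A673, 13 of them had H3K27me3 in both libraries and 12 had no other mark; in CHLA10, 14 had no H3K27me3 and 11 no mark at all. Over all 284 sites, 58.5% had no other A673 mark and 62.3% no CHLA10 mark. The strongest lay between genes on chromosome 18 (4605292 to 4605686), 150 kb from DLGAP1, a postsynaptic scaffold gene, with a −log10 q of 136, a HOXD13 fold of 55.1 and H3K27me3 folds of 4.91 and 5.10. The second (−log10 q 106, chromosome 9, 121613242 to 121613661) lies inside DAB2IP, a Ras GTPase-activating protein gene, and was 1 of 2 among the 15 with H3K4me1 in both A673 libraries (folds 3.85 and 8.18). It also had H3K27me3 in CHLA10 replicate 2 (fold 4.13). The site inside NKAIN2, which encodes a partner of the sodium pump (−log10 q 85.0), sat deep in its domain, 16.1 and 14.8 kb from the edge. Sites near KCNC2, a potassium channel gene (75.9), ZNF330 (73.8), the carboxypeptidase gene CPA6 (61.8) and the PDZ scaffold gene MPDZ (50.5) had H3K27me3 in both A673 libraries and no other mark in either line. The same held for the sites near EFNA5 (57.6) and the tankyrase gene TNKS2 (53.1). The site inside the collagen VI gene COL6A5 (70.4) had H3K27me3 in A673 replicate 2 only (fold 3.83). The site near RGS13, a regulator of G protein signalling (60.0), had H3K4me1 in CHLA10 replicate 2 alone. The site near TTLL7, a tubulin-modifying enzyme gene (53.7), had H3K4me1 in both A673 libraries, and the site near OGFRL1 (48.2) in A673 replicate 2. The site 2.49 kb from CD8B2 (52.1) had H3K27ac folds of 5.47 and 5.89 and H3K4me3 folds of 3.21 and 3.94 in CHLA10. Of the 15, 5 lay inside a gene and 5 lay over 100 kb from any coding gene boundary. Those 5 are named for DLGAP1 (150 kb away), KCNC2 (217 kb), EFNA5 (336 kb), MPDZ (334 kb) and OGFRL1 (165 kb).

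Developmental transcription factor genes were nearest to a small group of sites. Of the 284, 179 lay within 100 kb of a coding gene boundary and pointed to 161 genes, with a median distance over all sites of 57.0 kb (55.2 kb for the others). Inside a coding gene lay 120 sites (42.3%, interval 36.4 to 48.2, against 50.0% of all 6148), and inside a long noncoding RNA gene 65 (22.9%, 18.1 to 28.2, against 18.4% of the others). On the gene lists, 22 sites (7.75%, against 5.11% of all 6148) were nearest to a listed gene within 100 kb. Homeobox genes outside the HOX clusters and other developmental transcription factor genes together took 16 sites near 14 genes (5.63%, interval 3.25 to 8.99, against 1.46% of all 6148). Of the 1-kb positions within the A673 H3K27me3 domains, 3.63% were nearest to such a gene, a value inside that interval. No site was nearest, within 100 kb, to a HOX gene, to a listed EWS-FLI1 activated gene, to an EWS-FLI1 repressed or mesenchymal gene, or to a Polycomb complex gene; the shares among the others were low too (0.0682%, 0.443%, 0.836% and 0.188%). With no limit on distance, 2 sites were nearest ANXA1, on the EWS-FLI1 repressed and mesenchymal list, and 2 nearest AEBP2, on the Polycomb list. The lists hold 41, 43, 72 and 31 genes on these chromosomes.

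The 16 sites differed in H3K27me3 level and in which lines carried it. The highest fold in A673 was at the site 6.90 kb from HAND1, a heart and limb helix-loop-helix gene (chromosome 5, 154485125 to 154485389, −log10 q 38.5), with 9.77 and 11.1 in A673 against 4.63 and 4.17 in CHLA10. The site 9.85 kb from NR2E1, a nuclear receptor gene of neural stem cells, had folds of 7.95 and 8.05 in A673 and no H3K27me3 peak in CHLA10 (−log10 q 12.7). Near NEUROG3, a proneural and pancreatic endocrine gene, the folds were 6.44 and 7.41 in A673 against 4.36 and 6.04 in CHLA10 (−log10 q 9.15). The site 3.28 kb from POU3F3, a POU homeobox gene of the brain, was among the weakest for HOXD13 (−log10 q 2.73) and had folds of 5.63 and 5.81 in A673 and no peak in CHLA10. FOXP2 (28.5), the ESRRB site and the second site inside MECOM (30.7) likewise lacked CHLA10 H3K27me3. GATA4 (10.9), LMX1A (28.5), TFAP2B (16.9), HAND1, NEUROG3 and 1 of the MECOM sites (10.9) had it in both CHLA10 libraries, which makes 6 of 16, and 10 of 16 had it in neither. At TFAP2B, a neural crest gene, both CHLA10 libraries but only A673 replicate 2 had H3K27me3. PBX3, a homeodomain partner of HOX proteins, held 2 sites in its gene body (−log10 q 35.4 and 7.01), with no H3K27me3 in CHLA10. Sites near MSX2 (20.3), ALX4 (28.5) and PAX6 (4.40), homeobox genes of bone, limb and eye, had H3K27me3 in 1 A673 library each. H3K4me1 in both A673 libraries was found at 1 of the 16, the PAX6 site (folds 7.46 and 3.94), and in 1 A673 library at 8. The sites of PAX6, POU3F3, GATA4, NEUROG3 and the weaker MECOM site lie beyond the 5 strongest of their lists, and NR2E1 and ESRRB tie for the last place; they are named to account for all 16, after their values were seen.

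**Figure D4:**
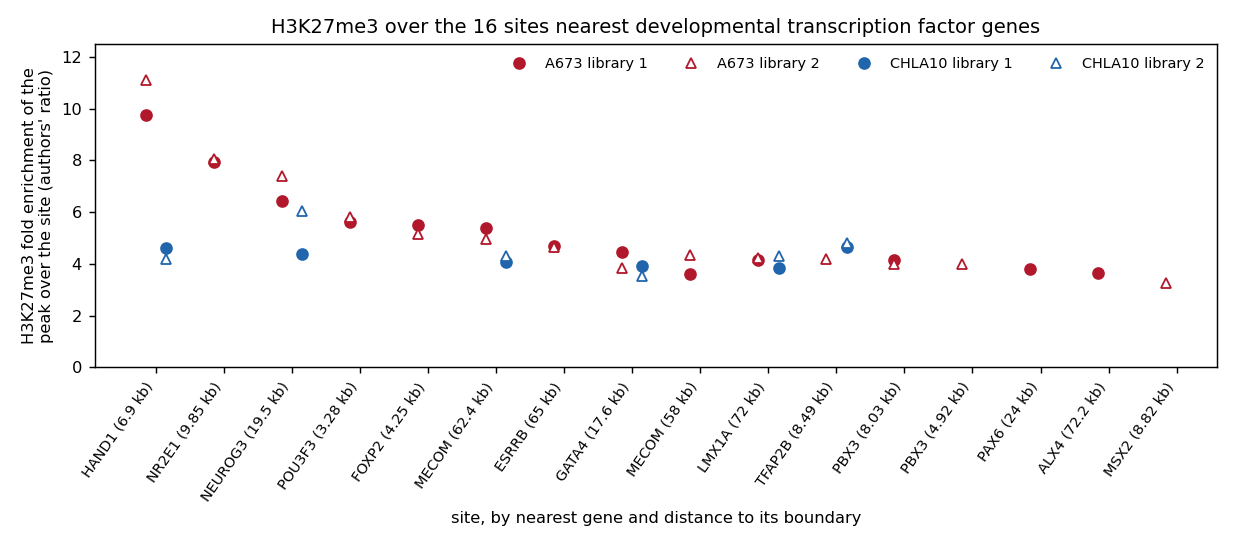
Fold enrichment of the H3K27me3 peak over each of the 16 sites nearest a developmental transcription factor gene (vertical axis, the authors' ratio), by gene and distance to its boundary, in A673 (red) and CHLA10 (blue), replicate 1 filled circles and replicate 2 open triangles; a missing symbol means no peak in that library. The HAND1 site is highest with 9.77 and 11.1 in A673, and 6 of the 16 have CHLA10 peaks.

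Other listed genes were nearest to 6 sites. FGF19, a secreted growth factor gene, had the site with the shortest distance to a coding gene boundary of all 284 (1.47 kb, −log10 q 41.6), with H3K27me3 folds of 4.30 and 4.14 in A673 against 4.88 and 4.81 in CHLA10. The guidance receptor gene EPHA6 (25.0) had H3K27me3 in all 4 libraries. The synaptic adhesion gene NRXN3 (18.3) had it in A673 replicate 2 alone, and the glutamate receptor gene GRM3 (14.5) in A673 replicate 2 and both CHLA10 libraries. The potassium channel gene KCNT2 (22.8) had it in both A673 libraries and the opioid receptor gene OPRM1 (4.96) in A673 replicate 2 alone, neither with CHLA10 H3K27me3. All 4 H3K27me3 libraries marked 30 of the 284 sites (10.6%, against 0.488% of all 6148). These 30 are also the only ones among the 6148, and the choice of sites by A673 H3K27me3 fixes this contrast.

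The genes nearest the sites often carried H3K27me3 at their own ends. In A673, 85 of the 161 genes (52.8%, interval 44.8 to 60.7) had H3K27me3 within 1 kb of a boundary in both libraries, against 12.1% of all 19126 coding genes and 11.3% of the 2665 genes nearest the others. At 39 of the 161, the domain that holds the site itself reaches that gene end, so the choice of sites enters the count. Of the other 122 genes, 49 (40.2%) had it. These genes too are nearest to places chosen for A673 H3K27me3, so the choice can enter their share as well. Genes nearest to other positions in the domains were not counted. In CHLA10, 43 of the 161 genes (26.7%, 20.1 to 34.2) had H3K27me3 in both libraries, against 7.99% of the genes nearest the others. H3K4me3 in both A673 libraries was found at 98 of the 161 (60.9%, 52.9 to 68.5), against 74.1% of the genes nearest the others and 64.9% of all. H3K27ac in both A673 libraries was found at 4 (2.48%, 0.681 to 6.24) against 7.84%, and in both CHLA10 libraries at 12 (7.45%, 3.91 to 12.7) against 19.8%.

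Around the HOX clusters themselves, 4 sites lay within 1 Mb. A pair of sites between genes lies 281.7 and 280.2 kb from the HOXD cluster on chromosome 2 (−log10 q 19.7 and 15.7), nearest LNPK, in an H3K27me3 peak of A673 replicate 2 with a fold of 3.37. A pair inside JAZF1, a zinc finger gene, lies 733 and 734 kb from the HOXA cluster (5.86 and 28.6), in peaks with folds of 7.72 and 6.61. No site lay within 1 Mb of the HOXB or HOXC cluster. Over the chromosomes, the sites' share of A673-only distal HOXD13 sites ran from 0 of 47 on chromosome 22 to 8.84% on chromosome 11 (26 of 294, interval 5.86 to 12.7), and it was 7.63% on chromosome 7 (27 of 354, 5.09 to 10.9). The 1-kb limit left out 11 peaks that met the other conditions. The 3 nearest outside it lie 995 bp from RAG1, 950 bp from TDRD1 and 713 bp from TDRD5 (−log10 q 18.5, 6.75 and 18.5), and the 3 nearest inside it 1470 bp from FGF19, 1521 bp from ADTRP and 1771 bp from PRTG (41.6, 9.10 and 32.4).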

How the data were processed

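CUT&RUN libraries of A673 and CHLA10 were compared through 18 of the authors' peak lists, 1 per library; the 4 IgG libraries entered no comparison. Bowtie2, MACS2, SEACR 1.2, bedtools and hg38 are listed by the submitters' processing notes with no role given. For each peak the authors deposited a fold enrichment (a ratio over background), a −log10 p, a −log10 q and a score, which is −log10 q times 10 as a whole number. Per the file headers and values, no deposited H3K27me3 peak is shorter than 2000 bp and no −log10 q lies below 2, and how the lists were shortened is not given in the sources used here. Genes were RefSeq boundaries without strand (19126 coding genes on chromosomes 1 to 22).

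Overlap meant at least 1 shared base. Intervals of shares are exact Clopper-Pearson at 95%, and 95% intervals of medians are ordered values at ranks set by the binomial distribution. Both kinds cover counting error only, and sites share domains and are not independent. Line differences were tested by exact permutation over libraries, and features were not tested one by one. The members and gene lists were chosen with earlier results of these data known. Named sites are the 15 highest by −log10 q, the 5 domains with most sites, up to 5 sites per gene list, sites within 1 Mb of a HOX cluster, and the 3 nearest each side of the 1-kb limit; others are marked in the text. Of the 15, 1 is counted but not described here. Same-numbered replicates of the lines showed no common deviation across marks over the sites (correlations −0.036, −0.071, −0.111 and 0.287 for H3K27me3, H3K27ac, H3K4me1 and H3K4me3, the last positive; between −0.018 and 0.014 over all 6148), so numbers were not used as pairs. Overlaps were computed with Python 3.11.15, pandas 2.3.3, numpy 2.4.6 and SciPy 1.17.1, and counts of A673 HOXD13 peaks equalled those of bedtools 2.31.1 for all 17 other lists. In simulated intervals all 200 placed overlaps were found. No genome sequence was used here, so letters under every site were not searched.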

Additional observations from a re-analysis of the deposited data

How the results depend on the processing

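Of 8 results under the alternatives tried, the H3K4me1 difference between A673 and CHLA10 stayed positive throughout, between 17.2 and 26.9 percentage points, with exact permutation p = 0.333 wherever both lines kept 2 libraries. The number of sites was 162 when H3K27me3 was required in both A673 lists and 166 in the upper 50% of HOXD13 peaks, against 284; leaving out A673 H3K27me3 replicate 1 or 2 gave 254 and 192. The CHLA10 H3K27me3 share was 17.6% with an SD of 0 between libraries, so every change exceeded that spread. It was 24.7% (both A673 lists), 17.5% (no H3K27ac in either list), 17.1% (overlap of 50%), 18.7% (upper 50% of HOXD13), 14.2% (upper 50% of each mark list), 17.1% (2.5 kb) and 18.4% (all annotated genes), and 17.6% to 22.7% with 1 H3K27me3 library left out. The CHLA10 H3K27ac share of 5.11% moved by less than its SD between libraries but ran from 2.33% (upper 50% of each mark list) and 3.42% (overlap of 50%) to 7.75% (without replicate 2). The median edge distance, averaged over libraries, was 1.41 kb and became 2.23 kb (both A673 lists) and 2.17 kb (upper 50% of each mark list). The median −log10 q of 16.4 became 18.3 (both A673 lists) and 24.0 (upper 50% of HOXD13, by construction). The H3K4me3 difference of 0.176 percentage points turned to -0.376 without H3K27ac in either list and to -0.602 in the upper 50% of HOXD13, and leaving out 1 library gave -0.176 to 0.781; the cause was not tested. Sites nearest a listed gene numbered 53 at any distance and 26 for inside the gene or within 10 kb, against 22.

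With the replicate numbers as a block, sign-flip exact permutation gave p = 0.5 for the H3K4me1 difference of 23.4 points, the smallest that 2 pairs allow, and p = 1 for the H3K4me3 difference of 0.176 points. Crossing the numbers for H3K4me1, an alternative chosen after seeing the data, again gave 23.4 points (sign-flip exact permutation p = 0.5). The mean difference does not depend on the numbering and p cannot go below 0.5, so crossing can decide nothing here.

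The lists hold no read counts, so depth sets an unknown limit on each absent peak, and HOXD13 rests on 1 library per line. The alternatives for letters under the sites were not run because they need a genome sequence.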

Other observations

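Outside the fixed lists, the H3K27me3 peak with the highest A673 replicate 1 fold over any of the 284 sites lay 22.2 kb from NKX1-1, a homeobox gene, and was picked after its values were seen. The folds there were 27.4 and 10.7 in A673 against 13.6 and 8.75 in CHLA10, while the HOXD13 peak was weak (−log10 q 4.26, length 516 bp). Within each A673 library, the highest H3K4me1 folds over the sites were in replicate 2 at the stronger of the sites near PAMR1 (4.66 and 27.7 in replicates 1 and 2) and in replicate 1 at a site inside DGLUCY (20.4 and 8.24). Neither of these places had a peak of any mark in CHLA10.

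Chromosome X was left out by the choice of sites. By the same conditions, 0 of its 98 A673-only distal HOXD13 peaks lay in A673 H3K27me3, which by 3 counts allows a share of up to 3.06% (exact Clopper-Pearson upper limit 3.69%), although the A673 H3K27me3 lists hold 272 and 372 peaks there.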
